A study of Mus musculus with 4 samples.

Results

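The genes described here encode subunits of the receptors for GABA, glycine and glutamate, the main fast inhibitory and excitatory transmitters of the brain. Each gene was taken by its name, with no measured value in the rule, and 43 genes with 62 probes, of 17916 genes with 25697 probes on the array, carried a name of these families. Among them were 16 GABA-A receptor genes, 1 GABA-B gene, 5 glycine receptor genes, 4 AMPA, 4 kainate and 6 NMDA receptor genes, and 6 metabotropic glutamate receptor genes. Other genes of these families were not analysed here.

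The study captured ribosomes carrying phosphorylated ribosomal protein S6, a modification that rises in active neurons, from mouse hypothalamus with an antibody against the phosphorylated form. RNA recovered in this immunoprecipitate (IP) and total RNA of the same homogenate (input) were hybridised to separate arrays. All mice were of the C57Bl/6J strain, 12 weeks old and without a stated genetic modification. The salt group (n = 2) received 325 uL of 2 M NaCl, the control group (n = 2) received phosphate-buffered saline, and both groups were then kept without water and killed 2 h after injection. Whether each sample came from 1 animal or from several pooled animals is not given in the labels, so p-values here reflect only how far these particular samples differ, a spread that may be technical.

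GABA-A and glycine receptors are pentameric chloride channels whose subunit mix sets their drug sensitivity, their kinetics and whether they sit at or outside the synapse. AMPA, kainate and NMDA receptors are tetrameric cation channels, while GABA-B and metabotropic glutamate receptors act through G proteins and modulate release and excitability. In the hypothalamus GABA is abundant, and vasopressin and oxytocin neurons, which respond to salt loading, receive both GABA and glutamate inputs.

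A probe was kept where its detection p was under 0.01 on at least 2 of the 8 arrays, and each gene was represented by its brightest kept probe. By this filter 29 of the 43 receptor genes were measured (67.4%, against 56.8% of all genes on the array), and 20 of them were detected on all 8 arrays. Among the measured genes were 11 GABA-A, 1 GABA-B, 3 glycine, 4 AMPA, 3 kainate, 2 NMDA and 4 metabotropic glutamate receptor genes. Of the 14 that were not measured, 13 were detected on no array: Gabra4, Gabra6, Gabrp, Gabrr1, Gabrr2, Glra1, Glra4, Grik2, Grin2b, Grin2d, Grin3b, Grm4 and Grm6. Grin2a, an NMDA subunit, was detected on 1 array, the IP of control replicate 2. Gabra6, known from cerebellar granule cells, and Grm6, known from retinal bipolar cells, were among those not detected, as was Grin2b, which is widely expressed in forebrain.

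The arrays had median raw intensities between 143.3 and 161.9, and their number limits the precision. Each IP array detected 13058 to 13808 probes and each input array 12259 to 12705. Of the 62 receptor probes, 41 to 43 were detected per IP array against 34 to 38 per input array. The log2 IP/input values of all kept probes correlated between replicates at r = 0.87 in the control group and r = 0.73 in the salt group. For the receptor genes r was 0.89 in the control group and 0.66 in the salt group. Across the 29 receptor genes the SD of the log2 IP/input value was 0.52 and 0.58 in the control samples, 0.56 in salt replicate 1 and 0.38 in salt replicate 2, so salt replicate 2 had the narrowest range. As a check of the treatment, 5 of 7 activity genes rose with salt in the IP, among them Fosb by 4.28 ± 0.20 on the log2 scale (SE, n = 2 against 2, limma adjusted p = 4.61e-05) and Avp, the vasopressin gene, by 3.41 ± 0.36 (adjusted p = 0.0127). Of the same 7 genes, 1 rose with salt in the input. In the IP/input ratio 0 of the 7 passed, though their median was 1.16. Of 9 hypothalamic marker genes 8 were detected and 1, Otp, was not.

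Over both groups, the ribosome capture held more of some receptor mRNAs and less of others, relative to total RNA. The log2 IP/input value was above 0 for 6 of 29 genes (among them Grik5, Gabrb1, Gria4, Grik4 and Gabrb2) and below 0 for 8 (among them Gabra5, Glrb, Glra2, Grin2c, Grm3 and Gabrg1), by limma with Benjamini-Hochberg adjustment over all 14199 kept probes. This was 20.7% and 27.6% of the measured receptor genes, against 26.7% higher and 30.0% lower among all 10182 measured genes, so neither share was above the background. The median log2 IP/input value was -0.13 for the receptor genes and -0.05 for all genes. The remaining 15 genes passed in neither direction. With IP and input arrays normalised apart the split was 8 higher and 5 lower, with the authors' deposited ratios it was 6 and 5, and with median scaling, which moved the median of all genes from -0.05 to -0.19, it was 5 and 10. Without control replicate 1 it was 2 higher and 4 lower, without control replicate 2 it was 3 and 6, and with probes detected on all 8 arrays it was 3 and 7.

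Of these 14 calls, 6 held under every alternative that gave a value, among them Gabrb1 and Grik5 in the higher direction and Gabra5, Glrb and Glra2 in the lower. Grik4 and Grik5 were detected on no input array, so they passed the filter through the IP arrays, where they were brighter. The lowest detected log2 level was 5.76 to 5.99 per IP array, below the 6.11 to 6.25 of the input arrays. Of the measured receptor genes, 8 were detected on more IP than input arrays and 0 on more input than IP arrays. The part of these differences in detection in the calls of dim genes was not tested. In tissue of many cell types, fewer cells of a type and less RNA per cell cannot be told apart.

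**Figure D1:**
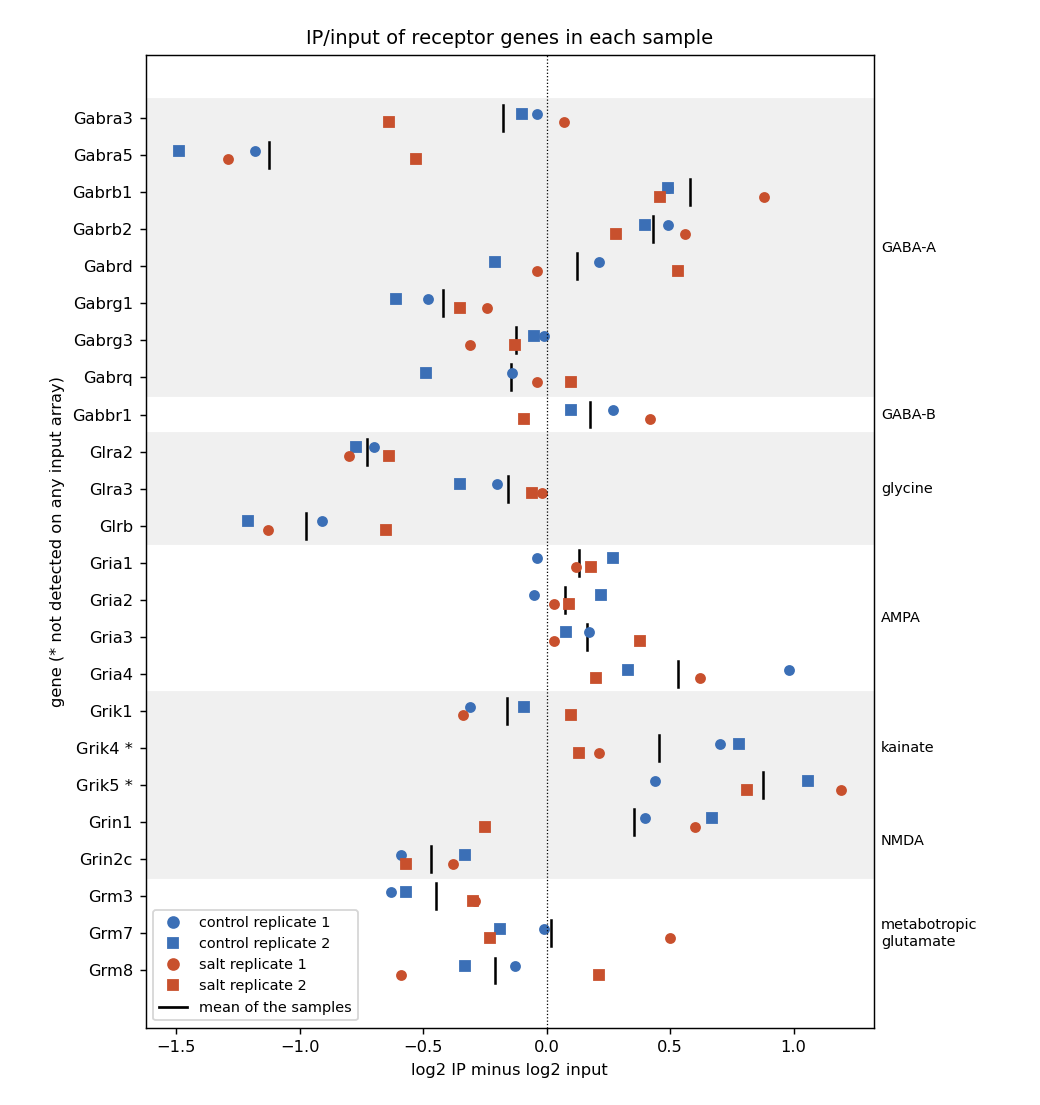
Log2 IP minus log2 input (x axis) of 24 measured receptor genes (y axis, grouped by receptor family), with 1 point per sample and a bar at the mean of the 4 samples. Gabra5, Glra2 and Glrb lie below 0 in all 4 samples and Gabrb1 and Grik5 above 0 in all 4, while control and salt points are mixed for most genes.

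Among the GABA-A alpha subunits, which help form the GABA and benzodiazepine sites, Gabra5 had the lowest IP/input value of all 29 genes. Its log2 level was 7.17 and 7.96 in control input, 7.57 and 7.43 in salt input, 5.99 and 6.47 in control IP and 6.27 and 6.90 in salt IP. All 4 IP arrays lay below all 4 input arrays. The log2 IP/input value was -1.18 and -1.49 in the control samples and -1.29 and -0.53 in the salt samples, and the mean of -1.12 ± 0.15 (SE over 4 samples, limma adjusted p = 0.00066) is a 2.18-fold lower level in the IP. The size depended on the background correction, since the mean was -0.61 with none and -0.58 with the deposited ratios.

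Gabra3, another alpha subunit, did not pass, at -0.04 and -0.10 in control and 0.07 and -0.64 in salt samples. Its salt replicate 2 lay apart from the other 3 samples.

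Of the beta subunits, needed for assembly and for part of the GABA site, Gabrb1 was higher in the IP. It had log2 levels of 8.30 and 8.59 in control input, 8.05 and 8.73 in salt input, 8.79 and 9.08 in control IP and 8.93 and 9.19 in salt IP. Every IP array lay above every input array. The log2 IP/input value was 0.49 in both control samples and 0.88 and 0.46 in the salt samples, with a mean of 0.58 ± 0.12 (limma adjusted p = 0.0044), or 1.5-fold.

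Gabrb2 depended on the probe. Its brightest probe had log2 IP/input values of 0.49 and 0.40 in control and 0.56 and 0.28 in salt samples, and passed at 0.43 ± 0.11 (limma adjusted p = 0.0127). Its second probe was below 0 in all 4 samples and did not pass, at -0.21 ± 0.11 (adjusted p = 0.137). The brightest exceeded the second by 0.78 and 0.60 in control and 0.87 and 0.34 in salt samples, so the order was the same in every sample. The mean of both probes was 0.11 (adjusted p = 0.369), and the brightest probe with median scaling also gave 0.11 (adjusted p = 0.448). The call was lost without control replicate 1 (adjusted p = 0.0955) and without control replicate 2 (adjusted p = 0.0716).

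Of the gamma subunits, which link GABA-A receptors to the synapse and complete the benzodiazepine site, Gabrg1 was lower in the IP. Its log2 IP/input values were -0.48 and -0.61 in control and -0.24 and -0.35 in salt samples, all below 0, with a mean of -0.42 ± 0.11 (limma adjusted p = 0.012). Without control replicate 1 the adjusted p was 0.0654, and without control replicate 2 it was 0.108. Gabrg3 was at -0.13 (adjusted p = 0.348) and passed in neither direction.

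Gabrd, the subunit of extrasynaptic receptors that carry tonic current, and Gabrq, the theta subunit, were dim. Gabrd had log2 IP/input values of 0.21 and -0.21 in control and -0.04 and 0.53 in salt samples, and Gabrq had -0.14 and -0.49 in control and -0.04 and 0.10 in salt samples. Neither passed, and the samples of each lay on both sides of 0. Gabbr1, the GABA-B subunit that binds GABA, was bright, at log2 levels of 9.76 to 10.19 on the 8 arrays, and did not pass (mean log2 IP/input 0.18 ± 0.13, limma adjusted p = 0.264).

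**Figure D2:**
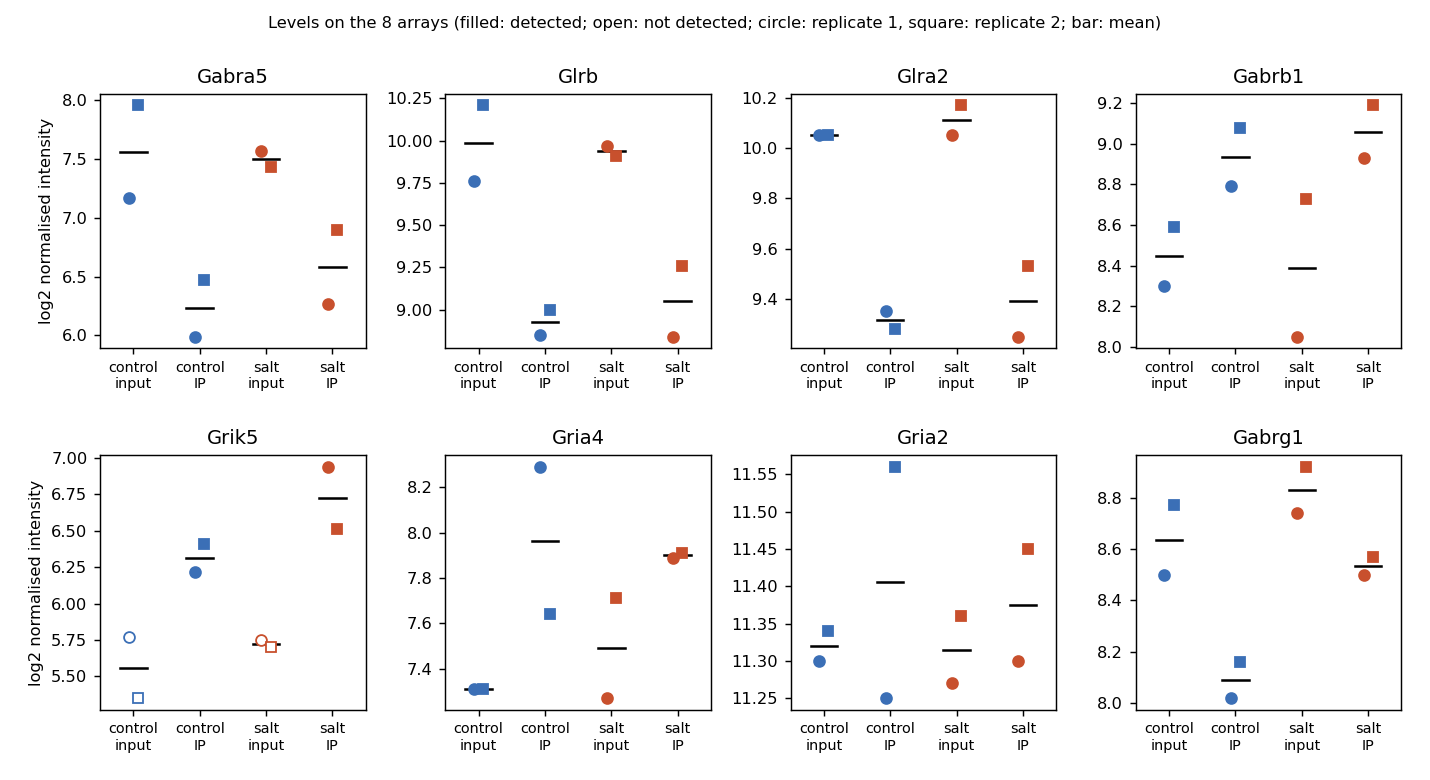
Log2 normalised levels (y axis, a scale of its own in each panel) of 8 receptor genes on the input and IP arrays of each group (x axis), with 1 point per array, open where not detected, and a bar at the mean. Glrb, Glra2 and Gabra5 sit lower on all 4 IP arrays than on all 4 input arrays and Gabrb1 sits higher, whereas Gria2 lies between 11.25 and 11.56 on all 8.

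Of the glycine receptor genes 2 of 3 were lower in the IP, where 30.0% of all genes were lower, and 0 were higher. Glrb, the beta subunit that anchors glycine receptors to the gephyrin scaffold, had log2 levels of 9.76 and 10.21 in control input and 9.97 and 9.91 in salt input, against 8.85 and 9 in control IP and 8.84 and 9.26 in salt IP. Input and IP arrays did not overlap. The log2 IP/input value was -0.91 and -1.21 in control and -1.13 and -0.65 in salt samples, with a mean of -0.97 ± 0.13 (limma adjusted p = 0.00064), or 1.96-fold lower in the IP. A second Glrb probe passed too, at -0.60 (adjusted p = 0.0025).

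Glra2, the alpha subunit best known from immature neurons, had log2 levels of 10.05, 10.05, 10.05 and 10.17 on the input arrays and 9.35, 9.28, 9.25 and 9.53 on the IP arrays. Its log2 IP/input values of -0.70 and -0.77 in control and -0.80 and -0.64 in salt samples spanned the narrowest range of the genes that passed, and the mean was -0.73 ± 0.11 (limma adjusted p = 0.0011), or 1.66-fold lower. Glra3 was below 0 in all 4 samples but did not pass (mean -0.16, adjusted p = 0.247). The median over the 3 glycine receptor genes was -0.70 and -0.77 in control and -0.80 and -0.64 in salt samples, because Glra2 was the middle gene in each sample.

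Among the AMPA receptor genes, which carry most fast excitatory transmission, 1 of 4 was higher in the IP, about the share of all genes (26.7%). Gria4 had log2 IP/input values of 0.98 and 0.33 in control and 0.62 and 0.20 in salt samples. All were above 0 but the replicates of each group lay far apart, and the mean was 0.53 ± 0.14 (limma adjusted p = 0.0148). Without control replicate 1 it was 0.37 (adjusted p = 0.137), and the call was lost.

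The other three AMPA genes did not pass. Gria1 was at -0.04 and 0.27 in control and 0.12 and 0.18 in salt samples, and its 3 probes had means between 0.06 and 0.14. Gria2, whose subunit makes the channel nearly impermeable to calcium, was at -0.05 and 0.22 in control and 0.03 and 0.09 in salt samples. By the brightest probe of each gene the 95% interval of the mean, -0.13 to 0.40 and -0.19 to 0.33, leaves out the sizes seen for Gabra5 and Glrb. The second Gria2 probe was above 0 in all 4 samples and did not pass (0.27 ± 0.12, limma adjusted p = 0.0869). Over the 15 alternatives the Gria2 mean ran from -0.33 to 0.17, and the gene passed in 1 of them. Gria3 was at 0.17 by its brightest probe, -0.27 by the second and 0.22 by the third, with no probe passing. The brightest exceeded the second by 0.56 and 0.47 in control and 0.40 and 0.33 in salt samples.

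The kainate receptor genes Grik4 and Grik5 encode high-affinity subunits that need a partner subunit to form a channel. Both had fitted IP/input values above 0. They passed the filter only through the IP arrays, so their p-values are no independent support for a higher IP level. Grik5 had log2 levels of 5.77 and 5.35 in control input and 5.75 and 5.70 in salt input, none of them detected, against 6.22 and 6.41 in control IP and 6.94 and 6.51 in salt IP. The level was at least 1.27-fold higher in the IP than the input arrays allowed, and the fitted log2 IP/input value was 0.88 ± 0.14 (limma adjusted p = 0.00145). With no background correction the fitted value was 0.36, and with the deposited ratios 0.44. Here and below, "at least" sets the mean of the IP arrays against the lowest detected signal on each input array. The probe's own signal is used where that was higher. Such a bound applies to the main background correction and is not a minimum over the alternatives.

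Grik4 had log2 IP/input values of 0.70 and 0.78 in control and 0.21 and 0.13 in salt samples. The control samples lay above the salt samples. The fitted mean was 0.46 ± 0.11 (limma adjusted p = 0.00815), but no fold over the detection limit of the input arrays remained. It was lost with no background correction (0.18, adjusted p = 0.0679), without control replicate 1 (adjusted p = 0.0546) and without control replicate 2 (adjusted p = 0.0762), and was 0.22 with the deposited ratios. Grik1 did not pass by any of its 3 probes, whose means ran from -0.23 to -0.16.

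Grin1, the obligatory NMDA subunit, was at 0.40 and 0.67 in control and 0.60 and -0.25 in salt samples. Salt replicate 2 lay apart, and the mean of 0.35 ± 0.16 did not pass (adjusted p = 0.0834). Its second probe did pass, at 0.52 ± 0.12 (limma adjusted p = 0.00841). That probe was detected on 4 IP arrays but on only 1 input array, so it met the filter through the IP arrays. Its p-value is therefore no independent support for a higher IP level.

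Grin2c, an NMDA subunit best known from cerebellar granule cells, was lower in the IP, at -0.59 and -0.33 in control and -0.38 and -0.57 in salt samples. The mean was -0.47 ± 0.11 (limma adjusted p = 0.00957). It was lost with IP and input normalised apart (-0.25, adjusted p = 0.0898), with the deposited ratios (-0.16, adjusted p = 0.119) and without control replicate 1 (-0.40, adjusted p = 0.0979), and was -0.20 with no background correction.

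Of the metabotropic receptors, Grm3, which lowers cyclic AMP and is also found in astrocytes, was lower in the IP. It had log2 IP/input values of -0.63 and -0.57 in control and -0.29 and -0.30 in salt samples, and a mean of -0.45 ± 0.11 (limma adjusted p = 0.00881). All 4 samples were below 0, the control samples more so. It was lost with IP and input normalised apart (-0.24, adjusted p = 0.0861), with the deposited ratios (-0.18, adjusted p = 0.0789), without control replicate 1 (adjusted p = 0.0765) and without control replicate 2 (adjusted p = 0.064), and was -0.27 with no background correction. Grm7 and Grm8, presynaptic receptors, did not pass, at means of 0.02 and -0.21, and the samples of each lay on both sides of 0.

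By receptor class, the IP held more of 2 and less of 6 among the 14 GABA-A and glycine receptor genes, whose median was -0.17. Of 14 glutamate receptor genes 4 were higher and 2 lower, with a median of 0.15. These counts stand against 26.7% of all genes higher and 30.0% lower. The median of the first class was -0.25 and -0.41 in control and -0.14 and -0.23 in salt samples, and that of the second was 0.01 and 0.17 in control and 0.08 and 0.12 in salt samples, so the order of the classes was the same in each of the 4 samples. All measured genes had medians of -0.06 to -0.01. The difference between the classes was not tested. Of the 4 higher glutamate receptor genes, only Gria4 would have passed the filter by its input arrays alone. Grik4 and Grik5 were detected on no input array.

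**Figure D3:**
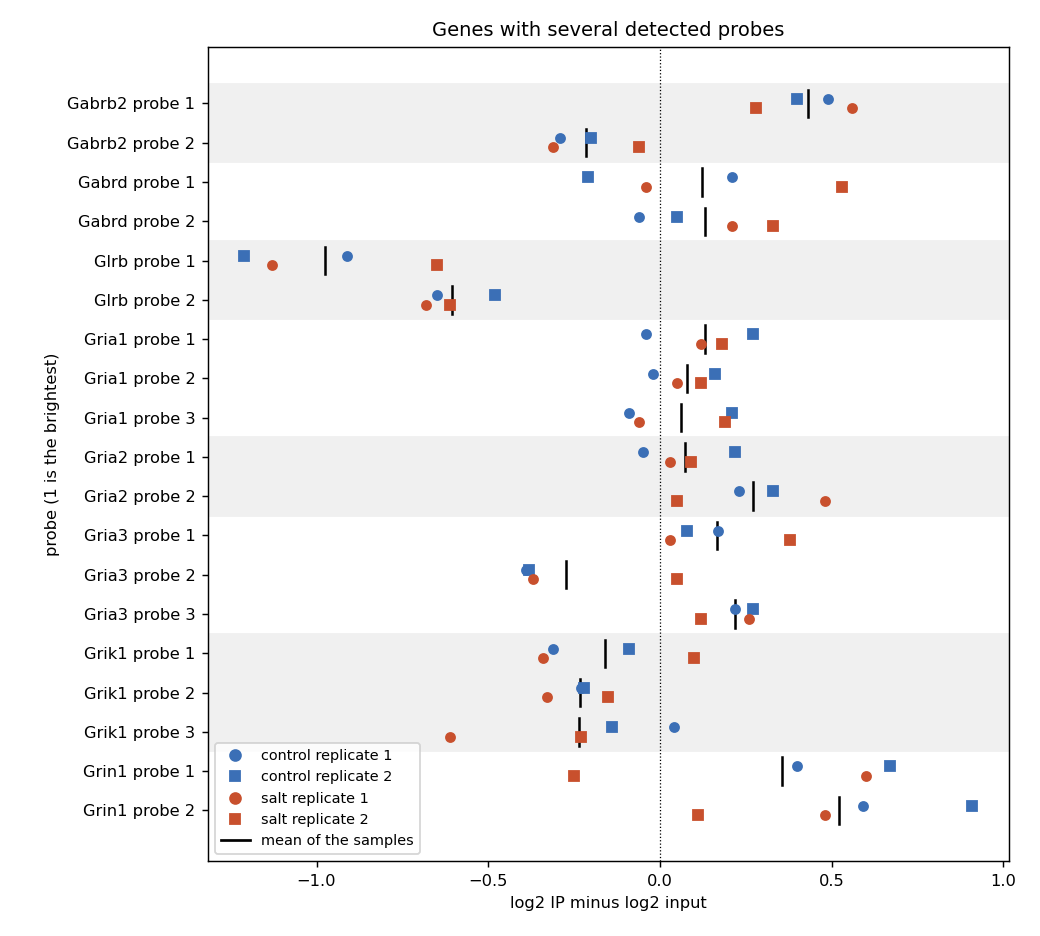
Log2 IP minus log2 input (x axis) of each kept probe of 8 receptor genes with several kept probes (y axis, probe 1 being the brightest), with 1 point per sample and a bar at the mean. The 2 Glrb probes lie below 0 in all samples, and the Gabrb2 probes lie on opposite sides of 0.

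Some of these genes lie side by side on the chromosomes (RefSeq annotation of assembly GRCm38.p6), and the neighbours named here did not share a call. On chromosome 7, Gabra5 (-1.12) was lower in the IP and its neighbour Gabrg3 (-0.13) did not pass. On chromosome 5, Gabrb1 was higher at 0.58 and Gabrg1, in the same cluster, lower at -0.42. On chromosome 3, Glrb (-0.97) was lower and its neighbour Gria2 (0.07) did not pass.

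The control samples alone gave 5 of 29 receptor genes higher in the IP and 7 lower, or 17.2% and 24.1%, against 19.4% and 20.9% of all genes. With IP and input normalised apart the control split was 6 higher and 5 lower. In the higher direction were, among others, Grik5 (at least 1.09-fold), Grik4 (at least 1.06-fold), Gria4 (0.66 ± 0.21, limma adjusted p = 0.0365) and Gabrb1 (0.49 ± 0.17, adjusted p = 0.05, just inside the threshold). Grik4 and Grik5 passed the filter only through the IP arrays, so their calls are no independent support for a higher IP level. In the lower direction were, among others, Gabra5 (-1.33 ± 0.21), Glrb (-1.06 ± 0.18), Glra2 (-0.73 ± 0.15), Grm3 (-0.60 ± 0.15) and Gabrg1 (-0.55 ± 0.15), at adjusted p between 0.00317 and 0.0251. None of these calls held in every alternative: with control replicate 1 left out 1 higher and 2 lower remained, and with control replicate 2 left out none did. Gria4 was 0.33 without control replicate 1 and Grik5 0.44 without control replicate 2. With no background correction and with the deposited ratios, Gabra5 was -0.72 and -0.72, and the values of Grik4, Grik5 and Grm3 were also smaller by over 1.5 times.

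The salt samples alone gave 2 receptor genes higher in the IP and 4 lower, or 6.90% and 13.8%, against 18.2% and 18.6% of all genes. With the main background correction Grik5 was at least 1.49-fold higher. Gabrb1 was at 0.67 ± 0.17 (limma adjusted p = 0.0187). Lower in the IP were, among others, Gabra5 (-0.91 ± 0.21, adjusted p = 0.0139), Glrb (-0.89 ± 0.18, adjusted p = 0.009) and Glra2 (-0.72 ± 0.15, adjusted p = 0.0107). All 6 were also called in the control samples, in the same direction. Just outside the threshold lay Gabrb2 (0.42 ± 0.16, adjusted p = 0.0727) and Grin2c (-0.47 ± 0.16, adjusted p = 0.052). Without salt replicate 1, Gabra5 (-0.53) and Gabrb1 (0.46) were lost, while Glra2 and Glrb held in every alternative. Grik5 held in every alternative that gave a value. The filter for probes detected on all arrays gave none for Grik5, which was detected on no input array. Since Grik5 passed the filter only through the IP arrays, its holding is no independent support for a higher IP level. With no background correction and with the deposited ratios, Gabra5 was -0.50 and -0.44, and the fitted Grik5 value 0.43 and 0.54. The values over both groups rest on the same samples as those by group and are no separate evidence.

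Salt against control, no receptor gene passed the test in the IP level, the input level or the IP/input ratio. In the IP, 0 of 29 genes were called by limma in either direction, against 0.167% of all genes higher and 0% lower. In the input, 0 of 29 were called, against 0.0196% higher and 0% lower, and in the IP/input ratio 0 of 29, against 0% in each direction. By the brightest probe, at an unadjusted p under 0.05, the IP had 2 genes higher with salt and 0 lower. The input had 0 in each direction, and the ratio had 0 higher and 2 lower. Among all genes the shares at that p were 3.02% and 2.84% in the IP, 1.14% and 1.11% in the input and 1.36% and 1.22% in the ratio. The second Grin1 probe, detected on 1 input array, was higher with salt in the input (0.70 ± 0.26, limma, unadjusted p = 0.0237). It did not pass after adjustment. The adjusted counts were 0 under every alternative as well.

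The design limits what could be seen. In the ratio, 0 of the 7 activity genes passed either, at a median of 1.16. The 95% interval of a salt effect reached 0.34 to 0.98 (median 0.47) log2 units to either side of the estimate in the IP and the input, and 0.50 to 0.72 (median 0.53) in the ratio. The estimates themselves ran from -0.58 to 0.45 in the IP, from -0.22 to 0.49 in the input and from -0.58 to 0.42 in the ratio. Their medians were 0.12, 0.05 and 0.08 in that order, against 0, 0 and 0.01 for all genes.

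**Figure D4:**
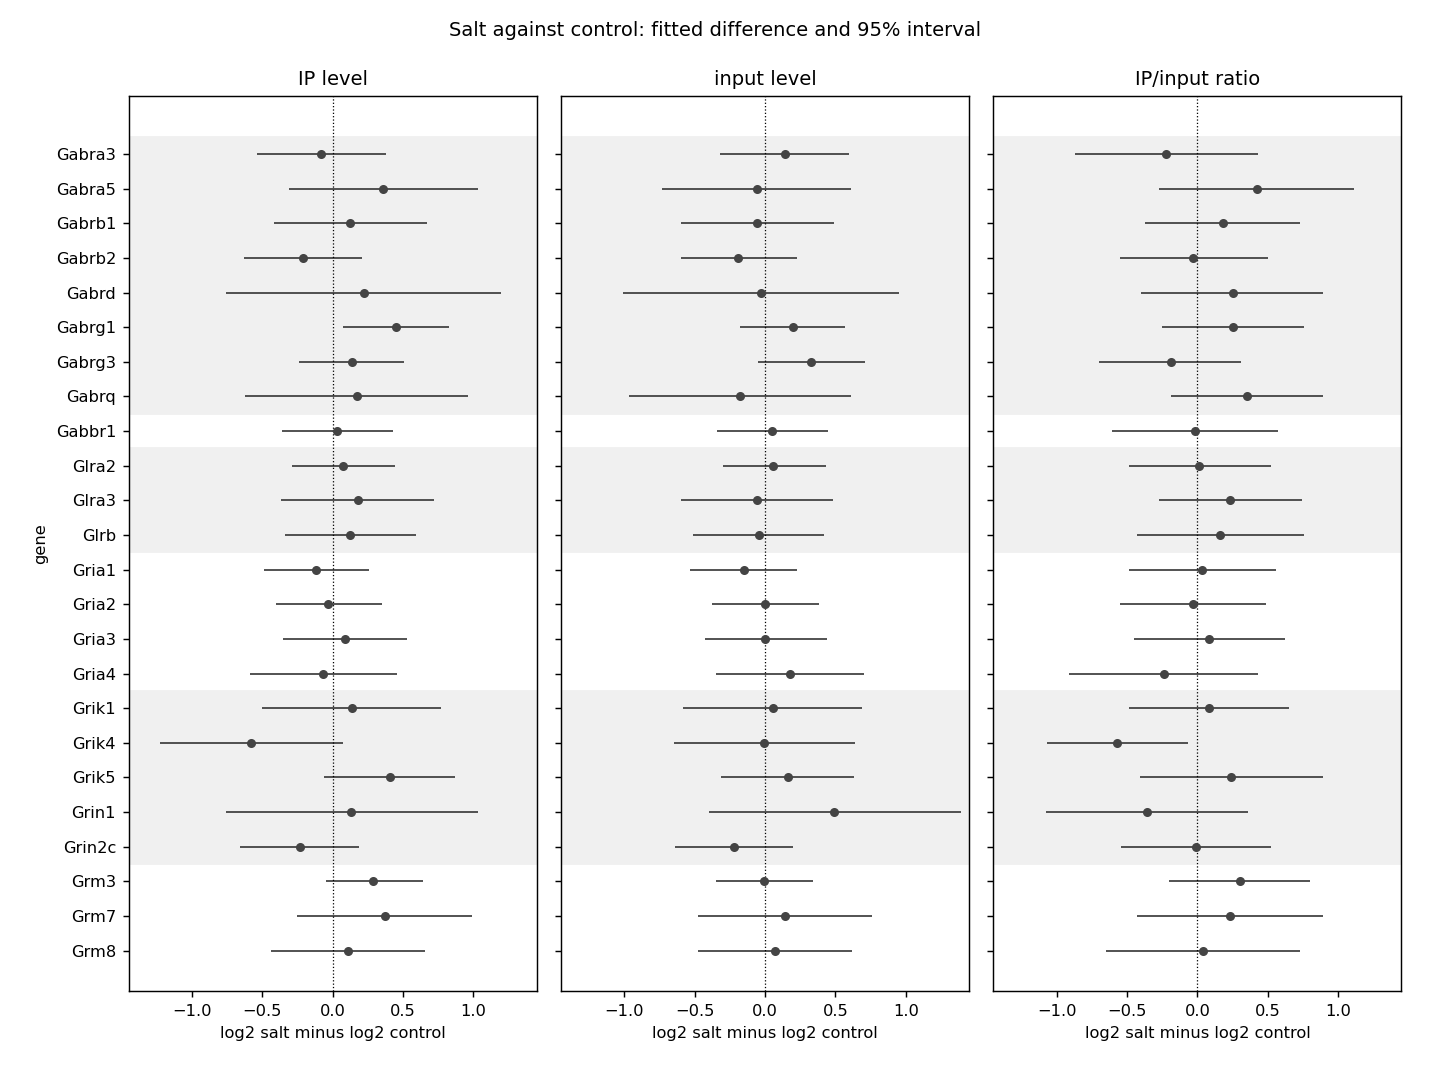
Fitted log2 salt minus control difference (points) with its 95% interval (lines) for 24 receptor genes, in the IP level, the input level and the IP/input ratio. Most intervals span 0, and those that do not are Gabrg1 in the IP and Grik4 in the ratio, neither of which passed after adjustment.

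Gabrg1, a GABA-A subunit, was 1 of the 2 genes at an unadjusted p under 0.05 in the IP. It had log2 IP levels of 8.02 and 8.16 in control and 8.5 and 8.57 in salt samples, against input levels of 8.5 and 8.77 in control and 8.74 and 8.92 in salt samples. The IP groups did not overlap, whereas the input groups did. The IP difference was 0.45 ± 0.17 (limma, unadjusted p = 0.0243, adjusted p = 0.822).

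Grik4 was 1 of the 2 genes at an unadjusted p under 0.05 in the IP/input ratio, lower with salt. It had log2 IP levels of 5.94 and 6.61 in control and 5.93 and 5.47 in salt samples, with undetected input levels of 5.24 to 5.83. The salt IP arrays lay below the control ones, though by only 0.01 between the nearest. In the IP of salt replicate 2 (5.47) Grik4 was not detected, the lowest detected level of that array being 5.99. The ratio difference was -0.57 ± 0.22 (limma, unadjusted p = 0.0295, adjusted p = 1). Its input side was not detected on any array.

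Some genes had salt and control samples that did not overlap. In the IP/input ratio 7 receptor genes had both salt samples above both controls and 3 had them below, or 24.1% and 10.3%, against 13.5% and 13.6% of all genes. In the IP the counts were also 7 and 3, against 15.5% and 15.5% of all genes. In the input 2 genes were above and 2 below, or 6.90% each, against 13.5% and 11.9%.

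By family, 9 of 11 GABA-A genes had an IP estimate above 0 with salt, with a median of 0.22 and a range of -0.21 to 0.45, and their input median was 0.08. All 3 glycine receptor genes had IP estimates above 0, from 0.07 to 0.18. The AMPA genes ran from -0.12 to 0.09 in the IP and from -0.15 to 0.18 in the input. None of these genes passed the test, so the values describe these 4 samples.

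Genes that work with the receptors were read from lists of auxiliary subunits, scaffolds and transmitter enzymes and transporters. Of 12 measured auxiliary subunit genes 2 were higher in the IP over both groups and 0 lower: Sorcs2 (0.83 ± 0.15, limma adjusted p = 0.00268) and Lhfpl4, which helps place GABA-A receptors at synapses (0.53 ± 0.14, adjusted p = 0.0113). The median of the list was 0.01, and both counts were below the shares of all genes (26.7% higher and 30.0% lower). Of 31 measured scaffold and trafficking genes 6 were higher and 6 lower, with a median of 0.01, again below both shares of all genes. Grip1, which binds AMPA receptors, was the highest at 0.75 ± 0.11 (adjusted p = 0.00095), and Cbln4 and Cbln2, secreted synapse organisers, the lowest at -0.67 and -0.66.

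Of 14 measured transmitter genes 2 were higher in the IP and 4 lower, against 26.7% and 30.0% of all genes, with a median of -0.05. Slc6a13, a GABA transporter, was higher at 1.12 ± 0.11. Gad2, which makes GABA, was lower at -0.68 ± 0.12, as was Slc17a8, a vesicular glutamate transporter, at -0.61. No gene of these 3 lists passed in any comparison of salt with control.

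Marker genes of cell types also differed between IP and input, where 26.7% of all genes were higher and 30.0% lower. Of 5 measured neuronal markers 1 was higher in the IP and 4 lower, with a median of -0.47, although their summed log2 level was 13.40 to 13.50 on input and 13.53 to 13.59 on IP arrays. Of 6 astrocyte markers 1 was higher and 2 lower (summed log2 level 12.53 to 12.70 on input and 11.91 to 12.66 on IP arrays). Of 3 oligodendrocyte precursor markers 3 were higher, with a median of 0.50 and summed levels of 9.32 to 9.71 on input and 10.17 to 10.66 on IP arrays. Of 8 measured hypothalamic markers 1 was higher and 5 lower (12.66 to 12.98 on input and 11.94 to 12.59 on IP arrays), and of 6 thalamic markers 3 were higher and 1 lower (12.46 to 12.85 and 12.19 to 13.03). Of 6 oligodendrocyte markers 0 were higher and 2 lower, and of 3 measured microglial and 3 measured ependymal markers 2 each were lower, with medians of -0.67 and -0.82. Of 5 cerebellar markers 2 were measured, of which Calb1 was lower in the IP at -1.14 and Zic1 did not pass at 0.05 (median -0.54, summed log2 level 10.83 to 11.06 on input and 10.64 to 11.26 on IP arrays), and Gabra6, Pcp2 and Cbln3 were not detected. The part of these cell types and regions in the IP/input values of the receptor genes was not tested.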

How the data were processed

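RNA from the IP and the input of 4 hypothalamus samples (2 salt, 2 control) was amplified, labelled with biotin and hybridised to Illumina bead arrays, per the labels. The deposited table holds, per the file headers, a linear non-normalised intensity and a detection p-value for each probe and array, and the submitters' processing notes name GenomeStudio. The authors' deposited ratio of each sample equals the IP intensity divided by the input intensity (largest relative gap 1.6e-09). Intensities were background-corrected and quantile-normalised with neqc of limma 3.58.1 (R 4.3.3, offset 16), which gave the log2 values used here instead of the authors' deposited ratio. Of 25697 probes 14199 were kept (detection p under 0.01 on at least 2 arrays). Log2 IP minus input was fitted by group (2 residual degrees of freedom), and IP and input levels by 4 group means (4 residual degrees of freedom), with lmFit, eBayes and Benjamini-Hochberg adjustment over all kept probes at 0.05. Gene names were updated through the RefSeq table of assembly GRCm38.p6 (20736 probes current, 3841 by synonym, 1120 kept as in the file). Values of 5 measured receptor genes are not reported here, though counts over all 29 include them. Of the other genes, those that passed with all samples on 1 side are named, filled up with unadjusted p under 0.05 where fewer than 5 passed, and probes that disagree are named each. Up to 3 genes of each other list are named by size among those that passed. The name rule uses no measured value, but the gene families and the lists were chosen with earlier results of these data known. The fits were tested on simulated data. Alternatives changed the background correction, the scaling, the filter, the probe choice, the deposited ratio as input, the replicate block and each replicate. No columns of other samples were present (0), and the files name no chip, so chip was not tested.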

Additional observations from a re-analysis of the deposited data

How the results depend on the processing

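The salt against control counts were 0 for the IP level, the input level and the IP/input ratio under all alternatives, as in the report. For IP over input, 8 receptor genes were lower over both groups, and 5 with IP and input normalised apart and 5 with the deposited ratios. Of genes higher, control samples gave 5, but 3 with no filter and 3 with probes detected on all 8 arrays, where the salt samples gave 1 and both groups 3. Leaving out each replicate in turn, the range was 0 to 7 higher and 0 to 8 lower in the control samples, 1 to 4 higher and 3 to 5 lower in the salt samples, and 2 to 7 higher and 4 to 9 lower over both groups; a lone sample was taken to vary like the other group. Of 559 values of single named genes under alternatives, 489 kept their direction and side of the threshold, 65 fell short of it, 5 newly passed it and 0 reversed. Samples with the same number did not deviate together (r = 0.01 for the ratio, 0.14 for IP levels and -0.23 for input levels). With the replicate number as a block, the control samples gave 4 higher, and no count moved by over 1.5 times; a crossed pairing, added after the data were seen, gave counts within 1.5 times as well. A chip block was not run, since the files name no chip. Dim genes, with input levels near the detection limit, set the limit of what could be measured.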
